A study of Mus musculus with 20 samples.

Results

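The cell cycle and proliferation genes described here are 37 genes, chosen by name from the 55866 genes of a count table, and all 37 were tested in every comparison. They are 2 proliferation markers, 8 cyclins, 4 cyclin-dependent kinases (CDK), 3 CDK inhibitors, 8 genes of the mitotic kinases, the spindle checkpoint and the anaphase-promoting complex (APC/C), 3 centromere and spindle motor genes, 6 subunits of the replicative helicase and 3 genes of the replication clamp and nucleotide synthesis. The counts come from female RiboTagEC mice on C57BL/6J, which carry Rpl22HA/HA, a ribosomal protein allele that gains an HA tag after recombination, and Cdh5CreERT2, a tamoxifen-inducible Cre under the endothelial Cdh5 promoter, so that the tag marks ribosomes of host endothelial cells. Every mouse received tamoxifen (75 mg/kg for 5 days) at 3 weeks of age and Py8119 mouse mammary tumor cells in a mammary fat pad at 8 weeks. Dosing began at a tumor volume given as 30 mm3 in the protocol and as an average of 50 mm3 in the design text, and lasted 10 days, with repeated intravenous injections of 6-3-A6, an antibody that neutralizes Notch4, or control mouse IgG, each at 25 mg/kg. From each tumor an aliquot of homogenate was kept as input, which holds RNA of all its cells, and tagged polysomes were immunoprecipitated from the homogenate (IP). This gave 4 groups of 5 libraries, control IgG input, control IgG IP, 6-3-A6 input and 6-3-A6 IP. The labels number the tumors without saying whether each came from a separate mouse, so p values measure the spread between these samples.

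As background, the cell cycle is driven by cyclins, which accumulate and are destroyed in turn, and by the kinases they activate. D-type cyclins act early with Cdk4 and Cdk6, E-type cyclins with Cdk2 at the start of DNA synthesis, and A- and B-type cyclins with Cdk2 and Cdk1 up to mitosis, while the inhibitors encoded by Cdkn1a (p21), Cdkn1b (p27) and Cdkn1c (p57) hold the kinases back. Endothelial cells of resting vessels rarely divide, those of sprouting tumor vessels do, and in a tumor the cancer cells and other stromal cells divide as well.

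Library totals were 11881214 to 26728205 counts, and 3 counts amounted to 0.104 to 0.315 CPM (counts relative to library totals scaled by edgeR's TMM factors). Of 17 endothelial markers, 16 were tested and all 16 were higher in IP (median log2 fold change 4.44), while Ecscr was at 0 in every library. Their summed level was 202 to 319 CPM in input and 1241 to 7045 CPM in IP. Of 13 macrophage markers, 12 were tested and 9 were lower in IP. Of the other marker lists, 4 of 10 fibroblast, 1 of 7 mural, 2 of 7 epithelial, 3 of 6 tested lymphoid and 0 of 4 tested erythroid markers were lower and none higher. Epithelial markers had estimates of -0.87 to 0.86, and the part of these other cells in the results on IP against input was not tested. One library, 6-3-A6 input 4, stood apart, with a median Spearman correlation of 0.908 with its group and 9.61% of its counts on mt-Cytb, and results that rest on it are given without its tumor too.

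Summed over the 37 genes, the level was 2436 to 3793 CPM in input and 2600 to 5328 CPM in IP. In the comparison of IP with input over all 10 tumors, with treatment as a term, 12 of the 37 genes rose and none fell (edgeR quasi-likelihood test, Benjamini-Hochberg adjusted p below 0.05). Over all genes tested 41.2% were called, 19.8% as higher and 21.4% as lower. At an unadjusted p below 0.05 there were 16 of the 37, against 50.2% of all genes. The median log2 fold change was 0.29 over the 37 genes and -0.05 over all genes. As these are bulk samples, fewer cells of a type and less RNA per cell cannot be told apart.

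Input and IP were taken as one tumor by their number, as the protocol describes. Their deviations from the group means correlated least in control IgG tumor 4 (Pearson r = 0.046) and 6-3-A6 tumor 4 (r = -0.078). With the tumor as a block, which sets each IP against the input of the same number, 22 of the 37 genes were called, 18 higher and 4 lower. All genes were called at 52.4%, 25.1% higher and 27.3% lower. Without the tumor of 6-3-A6 input 4, a choice made after seeing the data, the block called 25, 20 higher and 5 lower, against 60.3% of all genes (30% and 30.3%).

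**Figure D1:**
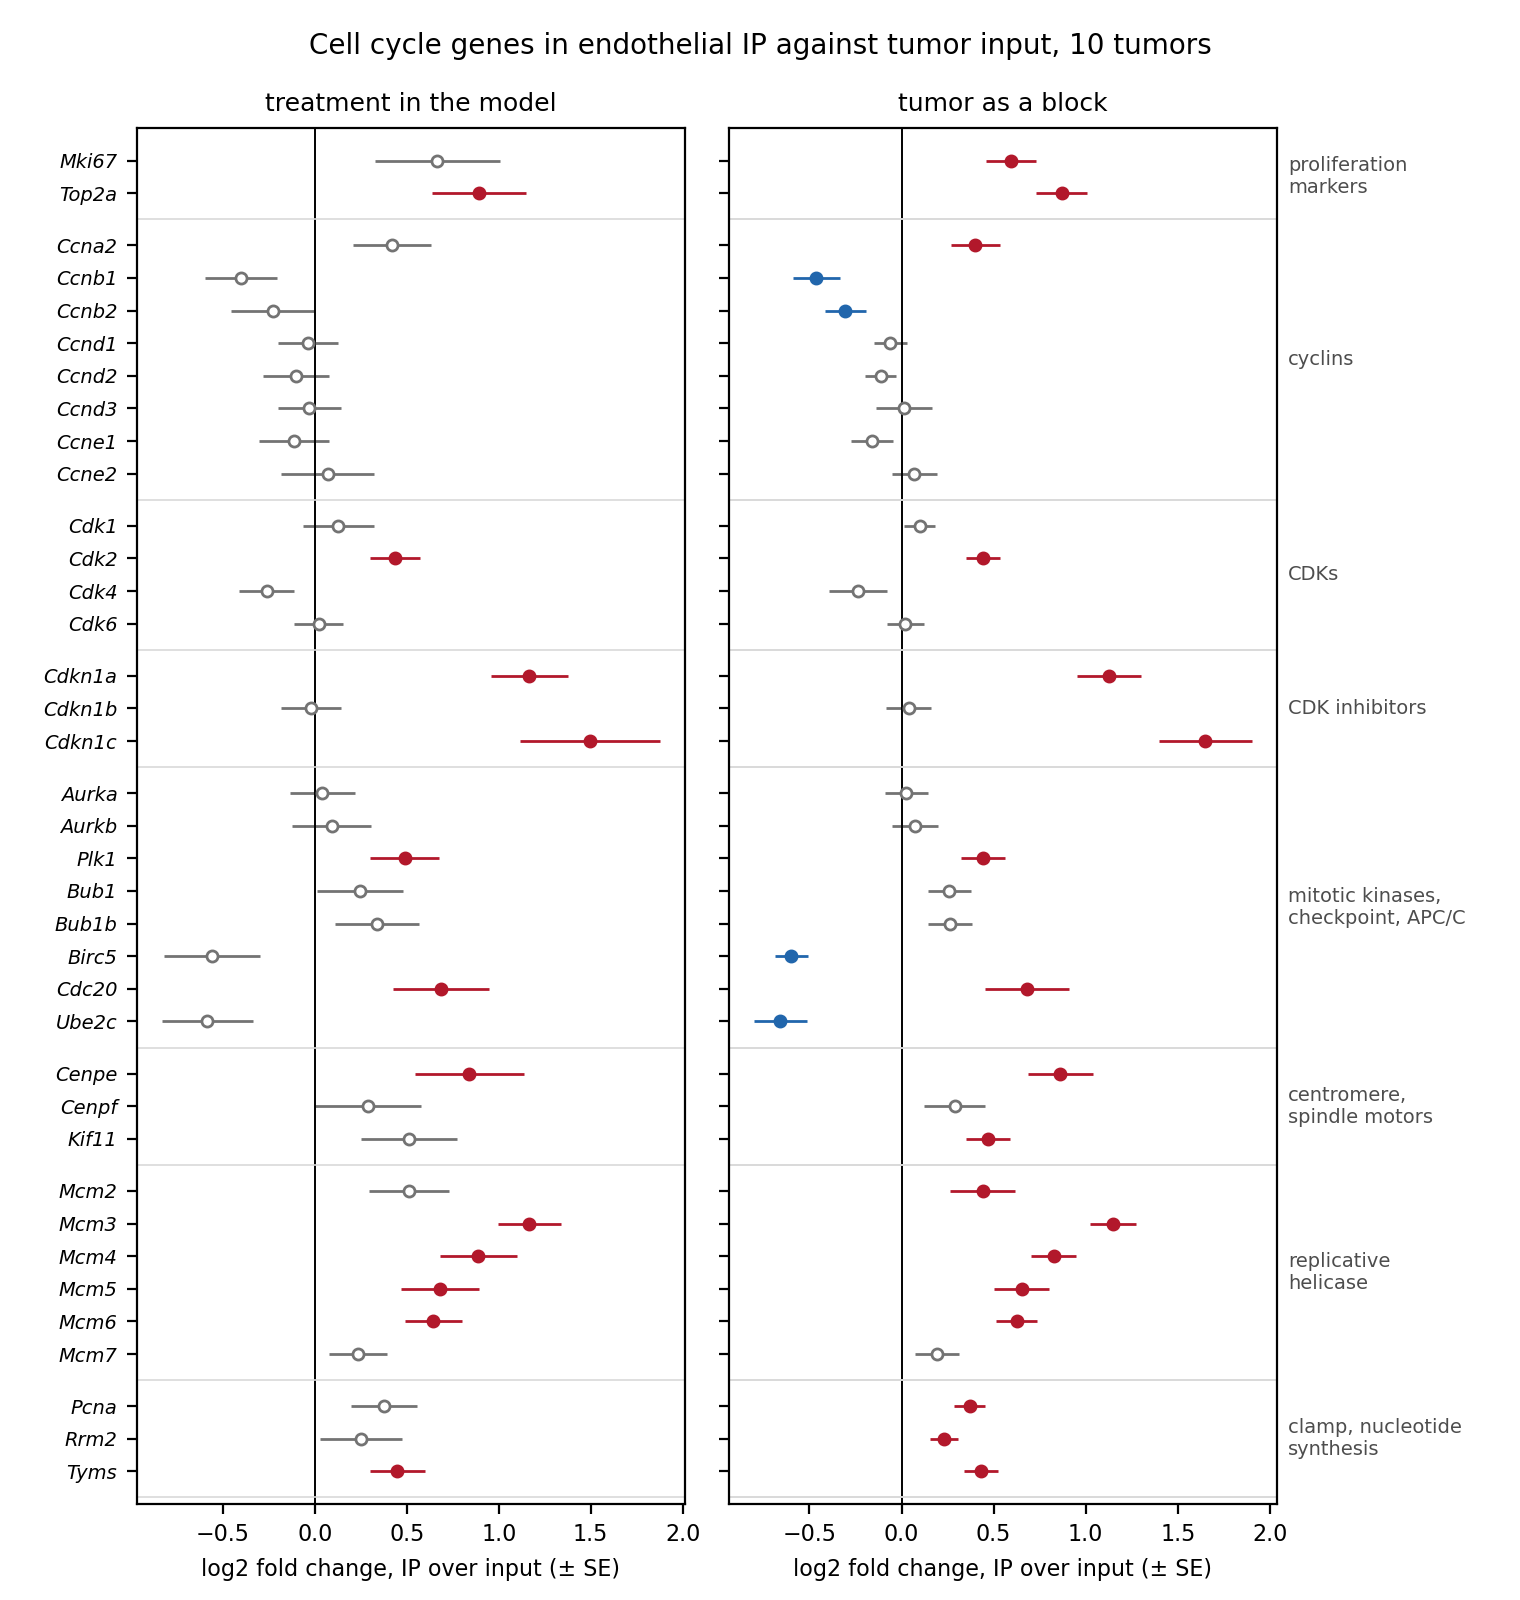
Log2 fold change of IP over input for the 37 genes, grouped by role, with treatment as a term (left) and with the tumor as a block (right). Points are estimates over 10 tumors, bars are ± SE, and filled red and blue points are genes called higher and lower. The helicase subunits lie above 0, and Ccnb1, Ccnb2, Birc5 and Ube2c are called lower under the block.

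The replicative helicase unwinds DNA at replication origins, and 4 of its 6 subunits rose, Mcm3, Mcm4, Mcm5 and Mcm6, with positive estimates for all 6. For Mcm3 (chromosome 1, 20873192 to 20890536, minus strand, GRCm39), input levels were 57.5, 67.3, 46.8, 81.4 and 64.4 CPM in control IgG tumors 1 to 5 and 41.7, 59.97, 46.3, 56.9 and 84.1 CPM in 6-3-A6 tumors 1 to 5. The IP levels of Mcm3 were 136, 149.8, 103, 87.2 and 172 CPM under control IgG and 105, 174, 86.0, 169.7 and 187 CPM under 6-3-A6. Every IP library lay above every input library. Such separation held for 1 of the 37 genes and 4.96% of all genes. The log2 fold change of Mcm3 was 1.17 ± 0.17 (SE, edgeR adjusted p = 1.59e-05).

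Mcm4 had 34.4 to 67.3 CPM in input (median 46.3) and 53.4 to 190.2 CPM in IP (median 71.4), a log2 fold change of 0.89 ± 0.21 (edgeR adjusted p = 0.00199). Mcm5 and Mcm6 had log2 fold changes of 0.68 ± 0.21 and 0.64 ± 0.16. Mcm2 had 26.0 to 65.0 CPM in input (median 46.8) and 42.0 to 148 CPM in IP (median 57.9), and was not called (0.51 ± 0.22, adjusted p = 0.0621). The ranges of these 4 subunits overlapped between the fractions. Mcm2 was called without control IgG tumor 4 (0.63, edgeR adjusted p = 0.0371). It was called under the block (0.44 ± 0.18, adjusted p = 0.0474) but not when the tumor of 6-3-A6 input 4 was left out of it (0.33 ± 0.14, adjusted p = 0.0506). Mcm7 was called in neither model, with a 95% interval of -0.07 to 0.54. Within tumors the IP level was above the input level in 10 of 10 for Mcm3 and Mcm4 and in 9 of 10 for Mcm5 and Mcm6, and control IgG tumor 4 had the lowest ratio for each of these 4.

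Promoter windows of 3 of the 4 helicase genes that rose (Mcm4 had none) and of the 4 genes that fell under the block are shown because cell cycle genes are known to share promoter elements. Each window runs from 250 bases before to 50 bases after the start site and comes from RefSeq on GRCm38.p6, and 30 of the 37 genes had one. Elements searched on both strands were the cell cycle homology region CHR (TTTGAA or TTCGAA), the CCAAT box (CCAAT) and the E2F element (TTCCCGC or TTGGCGC). Capitals mark matches, which may overlap each other, as the E2F and CCAAT letters do in Ccnb1.
Mcm3, chr1:20820263-20820562, minus strand: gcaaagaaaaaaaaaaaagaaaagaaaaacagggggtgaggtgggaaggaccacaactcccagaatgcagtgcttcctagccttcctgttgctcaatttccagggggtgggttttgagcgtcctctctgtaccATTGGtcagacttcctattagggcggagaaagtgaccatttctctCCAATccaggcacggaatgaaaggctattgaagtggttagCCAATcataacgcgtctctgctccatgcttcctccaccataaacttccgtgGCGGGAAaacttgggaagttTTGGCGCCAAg
Mcm5, chr8:75109259-75109558, plus strand: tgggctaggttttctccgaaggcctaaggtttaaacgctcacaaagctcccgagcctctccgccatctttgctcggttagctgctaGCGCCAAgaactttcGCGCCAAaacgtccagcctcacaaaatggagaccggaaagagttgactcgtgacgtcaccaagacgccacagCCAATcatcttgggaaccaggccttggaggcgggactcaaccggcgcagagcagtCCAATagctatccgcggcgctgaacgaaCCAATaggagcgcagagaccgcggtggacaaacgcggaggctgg
Mcm6, chr1:128359656-128359955, minus strand: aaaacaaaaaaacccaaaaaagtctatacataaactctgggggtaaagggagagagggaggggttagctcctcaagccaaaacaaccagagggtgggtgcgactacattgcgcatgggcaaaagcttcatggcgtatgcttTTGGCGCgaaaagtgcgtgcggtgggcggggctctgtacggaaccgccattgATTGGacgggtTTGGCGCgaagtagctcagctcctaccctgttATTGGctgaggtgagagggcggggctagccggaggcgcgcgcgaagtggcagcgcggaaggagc
Ccnb1, chr13:100786437-100786736, minus strand: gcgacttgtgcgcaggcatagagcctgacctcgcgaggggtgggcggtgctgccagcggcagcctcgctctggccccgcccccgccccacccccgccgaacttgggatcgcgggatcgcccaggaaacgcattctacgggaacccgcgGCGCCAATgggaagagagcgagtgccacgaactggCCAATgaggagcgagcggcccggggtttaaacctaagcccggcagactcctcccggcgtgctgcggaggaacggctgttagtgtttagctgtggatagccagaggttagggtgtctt
Ccnb2, chr9:70421505-70421804, minus strand: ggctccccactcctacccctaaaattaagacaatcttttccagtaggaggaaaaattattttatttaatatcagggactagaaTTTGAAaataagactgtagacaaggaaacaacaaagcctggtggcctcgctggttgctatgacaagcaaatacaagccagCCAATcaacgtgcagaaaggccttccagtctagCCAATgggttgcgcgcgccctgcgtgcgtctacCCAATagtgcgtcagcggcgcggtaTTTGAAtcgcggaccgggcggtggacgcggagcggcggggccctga
Birc5, chr11:117848987-117849286, plus strand: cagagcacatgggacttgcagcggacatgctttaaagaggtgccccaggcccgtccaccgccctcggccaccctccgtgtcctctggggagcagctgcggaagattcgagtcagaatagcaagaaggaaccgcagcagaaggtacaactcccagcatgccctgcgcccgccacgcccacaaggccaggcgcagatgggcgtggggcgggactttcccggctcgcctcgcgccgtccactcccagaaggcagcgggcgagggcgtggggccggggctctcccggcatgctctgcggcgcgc
Ube2c, chr2:164769679-164769978, plus strand: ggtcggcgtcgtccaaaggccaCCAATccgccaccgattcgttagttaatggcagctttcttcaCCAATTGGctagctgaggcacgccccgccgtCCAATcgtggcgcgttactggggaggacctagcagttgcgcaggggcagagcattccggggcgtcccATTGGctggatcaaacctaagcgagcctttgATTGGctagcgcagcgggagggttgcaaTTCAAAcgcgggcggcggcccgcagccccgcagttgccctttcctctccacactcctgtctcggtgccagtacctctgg
Mcm3 held 3 E2F and 3 CCAAT matches, Mcm5 2 and 3, and Mcm6 2 and 2, with no CHR in the 3 of them. Ccnb2 held 2 CHR and 3 CCAAT matches, Ccnb1 1 E2F and 2 CCAAT matches, Ube2c 1 CHR and 6 CCAAT matches, and Birc5 held none of these letters. Among the 30 genes, 46.7% held CHR letters against 21.7% of 27025 genes with a window, 80% held CCAAT against 41.1%, and 26.7% held E2F against 7.79%. Of the other genes that rose and had a window, Top2a held 4, Plk1 1 and Cdc20 1 CHR matches and no E2F match. Cdk2 held 2 E2F matches and no CHR, and Cdkn1a, Tyms and Cenpe held neither. The windows shown were picked by result, and a link between these letters and the direction was not tested. A match describes letters in the window and no binding was measured.

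Replication clamp and nucleotide synthesis genes had positive estimates, and Tyms, which makes thymidylate, was called. Tyms had 24.6 to 45.5 CPM in input (median 32.9) and 34.8 to 75.5 CPM in IP (median 42.3), a log2 fold change of 0.45 ± 0.15 (edgeR adjusted p = 0.0220). Pcna, the sliding clamp, had 41.2 to 97.0 CPM in input (median 63.9) and 47.1 to 113 CPM in IP (median 84.8), and an estimate of 0.38 ± 0.18 (adjusted p = 0.0950). The fractions overlapped for both, and 12.3% of the Pcna span is shared with AV099323. Under the block Pcna (0.37 ± 0.08, adjusted p = 0.00220) and Rrm2, a subunit of ribonucleotide reductase (0.23 ± 0.08, adjusted p = 0.0208), were called higher too. The IP level was above the input level in 10 of 10 tumors for Tyms, Pcna and Rrm2, and also for Cdk2, Cdkn1a, Cdkn1c, Mcm3 and Mcm4, against 13.9% of all genes.

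Of the CDK inhibitors, Cdkn1a and Cdkn1c were higher in IP and Cdkn1b was not called. Cdkn1a (chromosome 17, 29309950 to 29319701, plus strand) had input levels of 51.5, 48.8, 55.6, 54.8 and 42.2 CPM in control IgG tumors 1 to 5 and 38.4, 37.1, 69.1, 34.3 and 79.0 CPM in 6-3-A6 tumors 1 to 5. Its IP levels were 126, 83.5, 155, 72.7 and 66.4 CPM under control IgG and 124, 78.8, 218, 150.0 and 88.4 CPM under 6-3-A6. Apart from 6-3-A6 inputs 3 and 5, the inputs lay below the IP range. Its log2 fold change was 1.17 ± 0.21 (edgeR adjusted p = 0.000149), and 10.7% of the gene's span is shared with 1700023B13Rik.

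Cdkn1c (chromosome 7, 143012076 to 143014787, minus strand) had the largest estimate of the 37 genes on few reads, 588 counts over all libraries and as few as 5 in one. It had 0.279 to 2.34 CPM in input (median 0.568) and 1.01 to 3.695 CPM in IP (median 2.40), a log2 fold change of 1.496 ± 0.38 (edgeR adjusted p = 0.00373). Control IgG input 1 and 6-3-A6 input 4, at 2.34 and 1.79 CPM, were the inputs that reached the IP range, and 32.9% of the span is shared with Gm44732. Cdkn1b had 62.6 to 194 CPM in input (median 125) and 102 to 158 CPM in IP (median 121), and a 95% interval of the log2 fold change of -0.34 to 0.30.

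**Figure D2:**
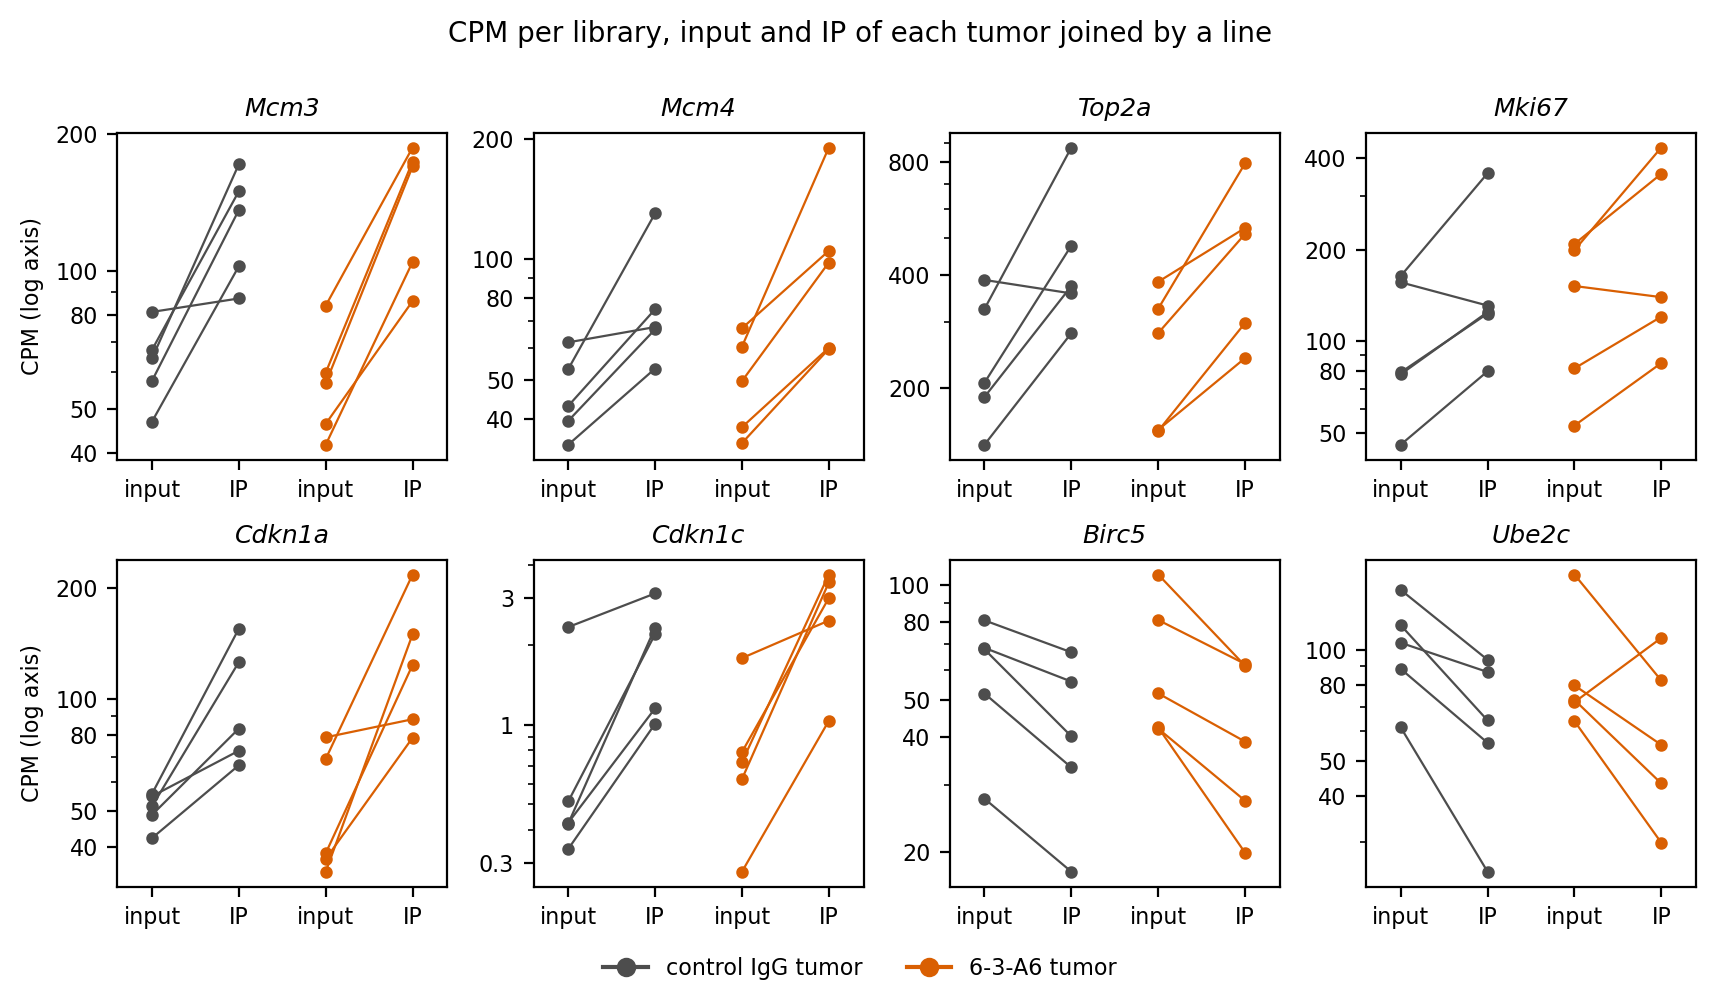
CPM on a log axis of 8 of the 37 genes in the input and the IP library of each tumor, with a line joining the fractions of a tumor (5 control IgG and 5 6-3-A6 tumors). Mcm3, Mcm4, Cdkn1a and Cdkn1c were higher and Birc5 lower in IP in 10 of 10 tumors, and Ube2c was lower in 9 of 10.

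Top2a, the topoisomerase of dividing cells, rose in IP. Its input levels were 189, 206, 141, 388 and 324 CPM in control IgG tumors 1 to 5 and 153, 325, 154, 383 and 279.5 CPM in 6-3-A6 tumors 1 to 5. Its IP levels were 373, 479, 279, 357 and 875 CPM under control IgG and 297, 793, 239.6, 533 and 514 CPM under 6-3-A6. The fractions overlapped, 9 of 10 tumors had the higher level in IP, and the log2 fold change was 0.89 ± 0.26 (edgeR adjusted p = 0.00867). Mki67, which encodes the Ki-67 antigen, had 45.8 to 209 CPM in input (median 117) and 79.8 to 433 CPM in IP (median 128). Its estimate was 0.67 ± 0.34 (adjusted p = 0.118), and it was called under the block (0.60 ± 0.14, adjusted p = 0.00229).

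With TMM scaling and without the block none of the 8 cyclins was called, and their median log2 fold change was -0.07. Ccnb1, a mitotic cyclin, had 25.3 to 50.1 CPM in input (median 36.2) and 13.1 to 46.8 CPM in IP (median 26.1), with overlapping fractions and an estimate of -0.40 ± 0.20 (edgeR adjusted p = 0.105). Under the block Ccnb1 (-0.46 ± 0.13, adjusted p = 0.00775) and Ccnb2 (-0.30 ± 0.11, adjusted p = 0.0355) fell. Ccna2, which acts in DNA synthesis and at entry into mitosis, rose under the block (0.40 ± 0.13, adjusted p = 0.0195), and 11.8% of its span is shared with Exosc9. Whether these cyclins differ from each other was not tested.

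The D-type cyclins, which couple growth signals to the cycle, gave estimates close to 0. Ccnd1 had 253 to 479 CPM in input (median 377) and 191 to 549 CPM in IP (median 379), with a 95% interval of -0.36 to 0.28. Ccnd2 had 164 to 399 CPM in input (median 270.0) and 135 to 344 CPM in IP (median 263), with an interval of -0.46 to 0.25. Ccnd3 had 25.0 to 100.5 CPM in input (median 64.3) and 47.0 to 80.2 CPM in IP (median 62.8), with an interval of -0.36 to 0.30, and its lowest input was 6-3-A6 input 4. The fractions overlapped widely for all 3, and 17.7% of the Ccnd1 span is shared with another gene. The E-type cyclins Ccne1 and Ccne2 were called in neither model (-0.49 to 0.26 and -0.43 to 0.57), and 41.9% of the Ccne2 span is shared with Ints8.

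Of the kinases, Cdk2 was called. It had 17.7 to 35.0 CPM in input (median 22.8) and 26.5 to 44.4 CPM in IP (median 30.3), a log2 fold change of 0.43 ± 0.13 (edgeR adjusted p = 0.0140). Cdk1, the mitotic kinase, had 39.4 to 95.2 CPM in input (median 73.2) and 38.1 to 121 CPM in IP (median 80.8), was higher in IP in 5 of 10 tumors and had an interval of -0.25 to 0.50. Cdk6 had 148 to 270.1 CPM in input (median 201) and 139.5 to 249 CPM in IP (median 213), with an interval of -0.24 to 0.28. All 3 overlapped between the fractions, and 11.8% of the Cdk2 span is shared with Pmel.

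For Cdk4, a partner of the D-type cyclins, one tumor decided whether it was called. It had 115 to 372 CPM in input (median 297) and 179 to 285 CPM in IP (median 229), and an estimate of -0.26 ± 0.15 (edgeR adjusted p = 0.166). The IP level was the lower one in 9 of 10 tumors, and the exception was 6-3-A6 tumor 4, whose input held the lowest level and whose log2 ratio was 1.30. Without that tumor Cdk4 was lower in IP (-0.37, adjusted p = 0.00939), as was Ube2c of the APC/C (-0.72, edgeR adjusted p = 0.0244), and Pcna was higher (0.44, edgeR adjusted p = 0.0444). Of the Cdk4 span 14.6% is shared with Tspan31.

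Among the mitotic kinases, checkpoint and APC/C genes, Plk1 and Cdc20 rose. Plk1, a kinase of mitotic entry and exit, had 17.1 to 35.3 CPM in input (median 26.9) and 18.2 to 54.7 CPM in IP (median 38.2), a log2 fold change of 0.49 ± 0.19 (edgeR adjusted p = 0.0412). Cdc20, an activator of the APC/C, had 5.46 to 28.7 CPM in input (median 19.2) and 13.7 to 46.8 CPM in IP (median 28.3), a log2 fold change of 0.69 ± 0.26 (adjusted p = 0.0392). Both overlapped between fractions, and the lowest Cdc20 level was in 6-3-A6 input 4. Plk1 was not called by edgeR without control IgG tumor 1, 2 or 5 or without 6-3-A6 tumor 1, 2, 4 or 5 (adjusted p = 0.0546 to 0.0911). Cdc20 was not called by edgeR without control IgG tumor 1, 2 or 5 or without 6-3-A6 tumor 1, 2 or 4 (adjusted p = 0.0518 to 0.0748). Without 6-3-A6 tumor 4 the Cdc20 estimate was 0.52 (adjusted p = 0.0742), and the block without that tumor called it (0.50 ± 0.12, adjusted p = 0.00211).

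Birc5, which encodes survivin of the chromosomal passenger complex, had 27.6 to 107 CPM in input (median 59.9) and 17.7 to 66.7 CPM in IP (median 39.5). The ranges overlapped, but IP was the lower fraction in 10 of 10 tumors, which held for 10.4% of all genes. Under the block Birc5 fell (-0.60 ± 0.09, adjusted p = 0.000116), as did Ube2c, the ubiquitin-conjugating enzyme of the APC/C (-0.66 ± 0.15, adjusted p = 0.00186). Ube2c had 61.5 to 159.7 CPM in input (median 84.3) and 25.0 to 108 CPM in IP (median 60.1), was lower in IP in 9 of 10 tumors, and shares 18.6% of its span with Tnnc2. Without the block the estimates were -0.56 ± 0.26 and -0.59 ± 0.25 (edgeR adjusted p = 0.0871 and 0.0613). Aurka, Aurkb, Bub1 and Bub1b were called in neither model over 10 tumors, and the block without the tumor of 6-3-A6 input 4 called Bub1 and Bub1b higher.

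Of the centromere and spindle motor genes, Cenpe, a kinetochore motor, rose. It had 25.5 to 108 CPM in input (median 60.1) and 51.4 to 201 CPM in IP (median 103), a log2 fold change of 0.84 ± 0.29 (edgeR adjusted p = 0.0271). Cenpe was not called by edgeR without control IgG tumor 1 or 2 or without 6-3-A6 tumor 1 or 5 (adjusted p = 0.0504 to 0.0732). The exceptions to the higher IP level were control IgG tumor 4 and 6-3-A6 tumor 4. Kif11, the motor that separates spindle poles, was called under the block (0.47 ± 0.12, adjusted p = 0.00529). Cenpf was called in the block without the tumor of 6-3-A6 input 4 (0.46 ± 0.11, adjusted p = 0.00290) and not with it.

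**Figure D3:**
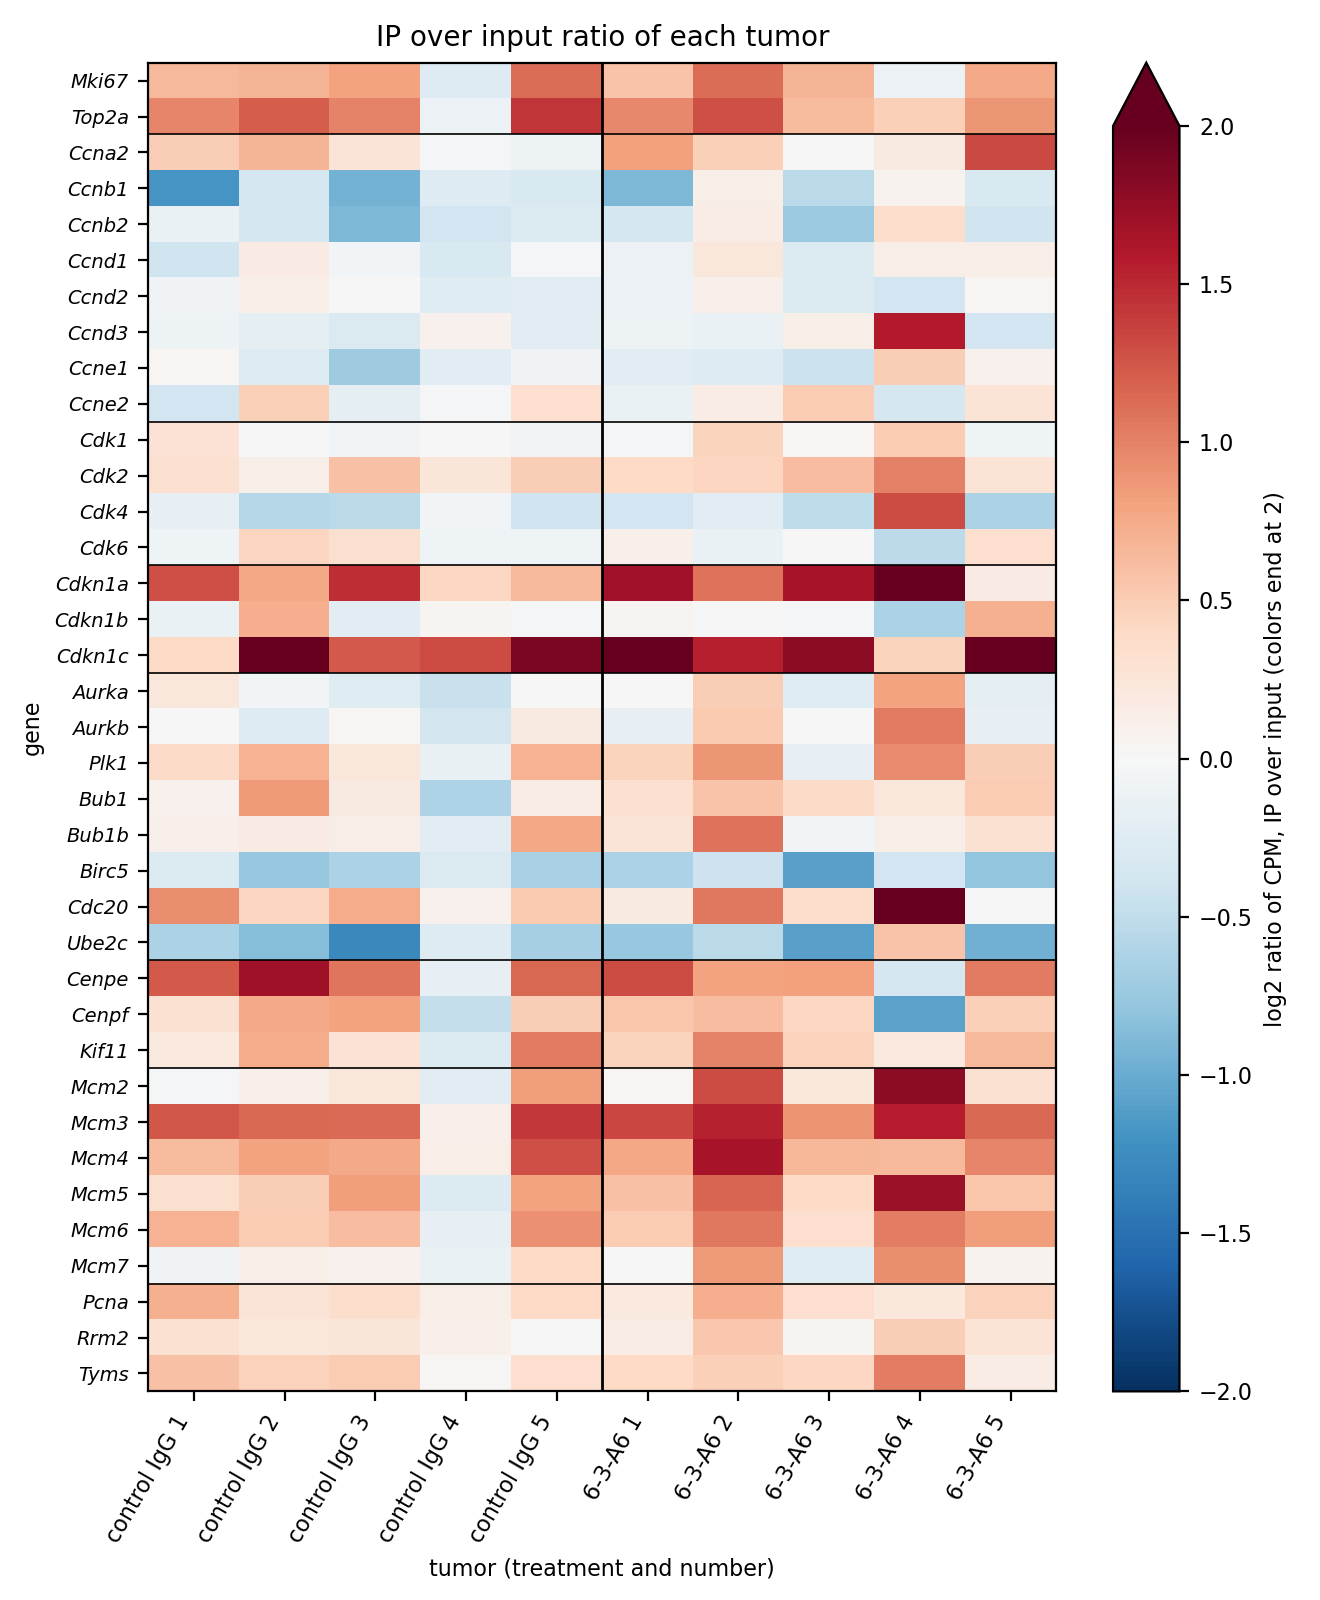
Log2 ratio of CPM, IP over input, of the 37 genes (rows, by role) in the 10 tumors (columns), red where IP was higher and blue where input was higher, with colors ending at 2. The rows of Mcm3, Cdkn1a and Cdkn1c are red and that of Birc5 is blue in all 10 tumors, and Cdk4, Ccnd3 and Cdc20 are reddest in 6-3-A6 tumor 4.

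Tumors differed in these ratios. In control IgG tumor 4 the log2 ratio was -0.25 for Mki67, -0.12 for Top2a and 0.10 for Mcm3. In 6-3-A6 tumor 2 the ratios of the same genes were 1.12, 1.29 and 1.53. Endothelial markers summed to 1516 and 1241 CPM in the IP libraries of these tumors, which were picked after their values were seen, and the part of endothelial content in the ratios was not tested.

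Within one treatment fewer genes were called. In control IgG tumors 2 of the 37 rose, Mcm3 (1.03 ± 0.21, edgeR adjusted p = 0.00573) and Cdkn1a (0.99 ± 0.23, adjusted p = 0.0120), against 15.8% of all genes called (10.1% higher and 5.74% lower). Mcm3 was called with each of the 5 tumors left out, and Cdkn1a in all but the fit without tumor 2. With the 3 tumors kept by the study neither was called, and Cdkn1c was (2.12, edgeR adjusted p = 0.0302). The same 2 genes, Mcm3 and Cdkn1a, did not overlap between the fractions, against 13.2% of all genes. The block called 16, 12 higher and 4 lower (Ccnb1, Ccnb2, Birc5 and Ube2c), against 33.9% of all genes (17.5% and 16.4%).

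In 6-3-A6 tumors 6 of the 37 rose, against 18.2% of all genes called (9.82% higher and 8.36% lower). They were Cdkn1c (1.77 ± 0.49), Cdkn1a (1.37 ± 0.33), Mcm3 (1.33 ± 0.26), Mcm4 (1.04 ± 0.32), Mcm5 (0.95 ± 0.30) and Mcm6 (0.81 ± 0.23). With 1 of the 5 tumors left out, Mcm3 was called in 5 fits, Cdkn1a in 4 (not without tumor 1) and Cdkn1c in 2 (without tumor 2 or tumor 4). Mcm4, Mcm5 and Mcm6 were called in 0 of these 5 fits, and the count fell to 1 without tumor 1, 2 without tumor 3 and 3 without tumor 2, 4 or 5. Cdk2 and Mcm3 did not overlap between the fractions, against 15% of all genes. The block called 12, 11 higher and 1 lower (Birc5), against 25.6% of all genes (13.3% and 12.3%). Without the tumor of 6-3-A6 input 4 it called 18, 15 higher and 3 lower, against 40.6% of all genes (19.5% and 21.1%).

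Of 123 further cell cycle genes, listed by function with earlier results of these data known, 115 were tested between the fractions, 16 rose and 21 fell, against the 19.8% and 21.4% of all genes given above. Under the block 25 rose and 34 fell, against 25.1% and 27.3% of all genes. Replication genes went both ways, 6 higher and 4 lower (7 and 10 under the block) of 32, with Pola2 of DNA polymerase alpha at 1.12 ± 0.15. Other mitosis genes gave 5 higher and 4 lower (13 and 6 under the block) of 37, from the condensin subunit Smc2 (1.01 ± 0.30) to Cks1b, which binds CDKs (-1.04 ± 0.23). The RB, E2F and DREAM regulators gave 0 higher and 7 lower (0 and 10 under the block) of 19, with the transcription factor E2f1 at -0.74 ± 0.14. The p53 response list gave 3 higher and 2 lower (3 and 3 under the block) of 12, with the kinase Plk2 at 1.32 ± 0.16. Other regulators of cyclins and CDKs gave 2 higher and 4 lower (2 and 5 under the block) of 15, with the phosphatase Cdkn3 at -0.75 ± 0.24.

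To ask what 6-3-A6 changed in tumor endothelium, the study compared 3 control IgG IP libraries (2, 4 and 5) with 3 6-3-A6 IP libraries (1, 3 and 4), leaving out 4 as outliers. In its principal component analysis the paper found poor resolution of the treatments over all IP libraries and more separation after this removal. Calls and non-overlapping groups in the kept libraries rest on that choice. In these 6 libraries Cdkn1a rose and Ccnd2 fell under 6-3-A6, 2 of the 37 genes against 4.61% of all genes (2.57% higher and 2.04% lower). With no filter on low counts 1 was higher and 4 were lower, with Mki67, Cenpe and Cenpf lower too, against 2.73% and 2.71% of all genes. At an unadjusted p below 0.05 there were 3, with Mki67, against 19.5% of all genes. The median log2 fold change was -0.22 over the 37 genes and -0.05 over all genes. Single libraries moved the median of the 37, to -0.09 without 6-3-A6 IP 1, -0.01 without 6-3-A6 IP 3 and -0.63 without 6-3-A6 IP 4.

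Cdkn1a was at 83.5, 72.7 and 66.4 CPM in the control IgG IP libraries 2, 4 and 5 (74.2 ± 8.61, SD, n = 3) and at 124, 218 and 150.0 CPM in the 6-3-A6 IP libraries 1, 3 and 4 (164 ± 48.3, SD, n = 3). The groups did not overlap, which held for 3 of the 37 genes and 24.3% of all genes, and the log2 fold change was 1.11 ± 0.23 (edgeR adjusted p = 0.0271). The control IgG IP libraries left out, 1 and 3, held 126 and 155 CPM, within the range of the 6-3-A6 libraries used. The 6-3-A6 IP libraries left out, 2 and 5, held 78.8 and 88.4 CPM, near the control IgG libraries used. Over all 10 IP libraries the estimate was 0.37, with a 95% interval of -0.22 to 0.97.

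Ccnd2 (chromosome 6, 127102125 to 127129156, minus strand) was at 289, 307 and 344 CPM in the control IgG IP libraries 2, 4 and 5 (313 ± 28.3, SD, n = 3) and at 150.3, 135 and 212 CPM in the 6-3-A6 IP libraries 1, 3 and 4 (166 ± 40.7, SD, n = 3). The groups did not overlap, and the log2 fold change was -0.95 ± 0.23 (edgeR adjusted p = 0.0418). The control IgG IP libraries left out held 211 and 237 CPM and the 6-3-A6 IP libraries left out held 333 and 293 CPM, so that over all 10 the estimate was -0.31 (-0.84 to 0.21). Of the Ccnd2 span 14.1% is shared with Gm43126 and 9330179D12Rik.

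The endothelial content of the libraries moved with both genes. A content score, the mean log2 CPM of endothelial markers less that of macrophage, fibroblast and epithelial markers, was 0.77, -0.49 and 0.45 in the control IgG IP libraries 2, 4 and 5 and 2.17, 2.41 and 2.18 in the 6-3-A6 IP libraries 1, 3 and 4. It was 2.01 and 2.66 in control IgG IP 1 and 3 and -0.13 and 1.03 in 6-3-A6 IP 2 and 5. In the 6 libraries all 16 tested endothelial markers had positive estimates and 5 were called (summed 1516 to 4914 CPM under control IgG and 4947 to 6192 CPM under 6-3-A6). All 12 tested macrophage markers had negative estimates and 6 were called lower (summed 6583 to 7729 CPM and 3276 to 3911 CPM). Called too were 0 higher and 2 lower of 10 fibroblast markers, 0 higher and 1 lower of 7 mural markers, 0 higher and 2 lower of 7 epithelial markers and 3 higher and 0 lower of 4 erythroid markers. With the score as a covariate the log2 fold change was 0.68 for Cdkn1a and -0.79 for Ccnd2 (edgeR adjusted p = 0.957 for both), and 0 genes were called in all. In these 6 libraries the score did not overlap between the treatments, so that fit cannot tell endothelial content from treatment. The part of endothelial content in these results was not tested.

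**Figure D4:**
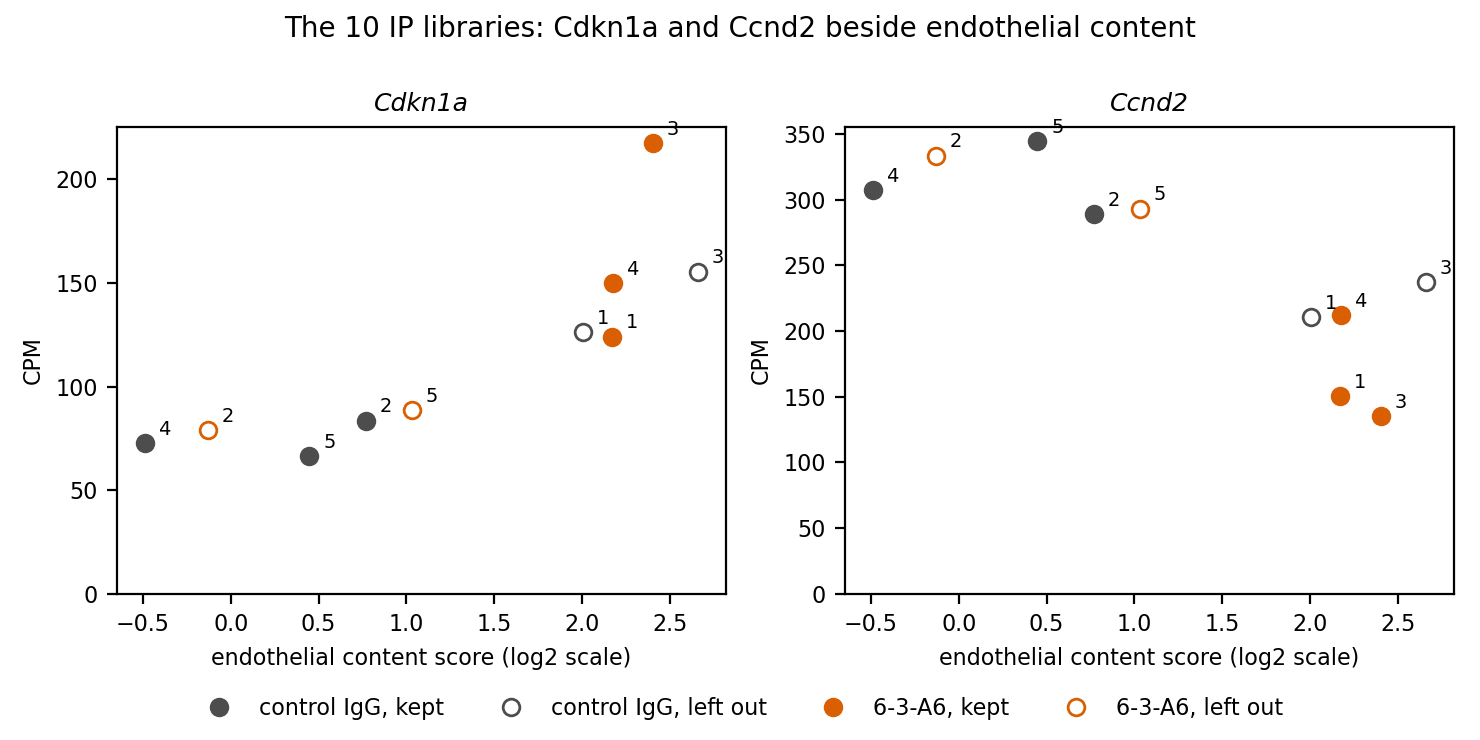
CPM of Cdkn1a and Ccnd2 (vertical axes) against the endothelial content score (horizontal axes, log2 scale) in the 10 IP libraries, with filled points for the 6 libraries compared by the study and open points for the 4 left out. The 5 libraries with a score above 2, from both treatments, held 124 to 218 CPM of Cdkn1a and the other 5 held 66.4 to 88.4 CPM.

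Leaving out each of the 6 libraries in turn, Cdkn1a was called in 2 fits, those without control IgG IP 2 and without 6-3-A6 IP 1, and Ccnd2 in 0. The estimates lay between 0.86 and 1.28 for Cdkn1a and between -1.16 and -0.82 for Ccnd2.

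With low counts filtered, none of the proliferation markers and centromere genes was called in the 6 libraries. With no filter Mki67 (-0.83, edgeR adjusted p = 0.0162), Cenpe (-0.77, edgeR adjusted p = 0.0260) and Cenpf (-0.73, edgeR adjusted p = 0.0330) were lower under 6-3-A6. Mki67 was at 125, 131 and 357 CPM in the control IgG IP libraries 2, 4 and 5 and at 121, 84.9 and 139.8 CPM in the 6-3-A6 IP libraries 1, 3 and 4, groups that overlapped, with an estimate of -0.87 (95% interval -1.63 to -0.10). Control IgG IP 5 held the highest of these levels, and without it the estimate was -0.17 (adjusted p = 0.764), while it was -1.55 with the content score as a covariate. The libraries left out held 124 and 79.8 CPM under control IgG and 433 and 355 CPM under 6-3-A6, and over all 10 the estimate was 0.46 (-0.52 to 1.45). Top2a was at 479, 357 and 875 CPM and 297, 239.6 and 533 CPM (-0.71, -1.46 to 0.03), with an estimate of -0.24 without control IgG IP 5, -1.12 without 6-3-A6 IP 4 and -1.64 with the covariate, and over all 10 at -0.01 (-0.74 to 0.73). With the filter Cenpe and Cenpf had estimates of -0.79 and -0.75 (edgeR adjusted p = 0.264 and 0.270). Both overlapped between the groups and were highest in control IgG IP 5, at 201 and 102 CPM. Over all 10 IP libraries the 3 centromere and spindle motor estimates were positive, 0.03 to 0.22.

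The other CDK inhibitors had positive estimates. That of Cdkn1c turned to -1.18 with the content score, which does not overlap between the treatments here, as a covariate. Cdkn1c was at 2.33, 1.01 and 2.20 CPM under control IgG and 3.45, 3.01 and 2.48 CPM under 6-3-A6 in the 6 libraries, groups that did not overlap (0.64, 95% interval -0.06 to 1.34). Cdkn1b was at 115, 125 and 102 CPM under control IgG and 150.4, 158 and 124 CPM under 6-3-A6, groups that overlapped by a narrow margin (0.32, -0.05 to 0.68).

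The kinases gave intervals that included 0. Cdk1 was at 83.1, 78.5 and 64.2 CPM under control IgG and 56.9, 50.2 and 121 CPM under 6-3-A6 in the 6 libraries (-0.01, 95% interval -0.61 to 0.58). Cdk4 was at 249.7, 264 and 179 CPM and 221, 224 and 282 CPM (0.04, -0.38 to 0.47). Cdk6 was at 232, 209 and 221 CPM and 217, 169 and 152 CPM (-0.33, -0.73 to 0.07). The groups overlapped for all 3, and over the left-out libraries the estimates were -0.52 to 0.22 for Cdk1, -0.10 to 0.18 for Cdk4 and -0.48 to -0.22 for Cdk6.

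Cyclins other than Ccnd2 were not called. Ccnd1 was at 396, 387 and 458 CPM under control IgG and 316, 305 and 418 CPM under 6-3-A6 in the 6 libraries (-0.29, 95% interval -0.71 to 0.14). Ccnd3 was at 66.2, 59.9 and 47.0 CPM and 58.3, 62.5 and 75.6 CPM (0.16, -0.23 to 0.54). Ccnb1 was at 26.3, 41.8 and 32.4 CPM and 20.4, 19.3 and 36.4 CPM (-0.43, -0.97 to 0.11). Each of these overlapped between the treatments, and the Ccnb1 estimate was -0.78 to -0.20 over the left-out libraries and 0.72 with the content score as a covariate.

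For Pcna and Mcm2, 6-3-A6 IP 4 stood above the other 2 of the 3 6-3-A6 libraries compared. Pcna was at 88.4, 81.0 and 81.2 CPM under control IgG and 47.1, 59.3 and 113 CPM under 6-3-A6 in the 6 libraries (-0.22, 95% interval -0.79 to 0.34). Mcm2 was at 60.1, 55.8 and 87.3 CPM and 42.0, 42.6 and 90.2 CPM (-0.25, -0.86 to 0.36). For both genes 6-3-A6 IP 4 lay above and 6-3-A6 IP 1 and 3 lay below the control IgG libraries. The 6 helicase estimates were -0.33 to -0.16, with a median of -0.23 and 0 positive. Single libraries left out moved the median and the number positive to 0.01 and 4 without control IgG IP 5, -0.09 and 0 without 6-3-A6 IP 1, -0.04 and 2 without 6-3-A6 IP 3, -0.60 and 0 without 6-3-A6 IP 4, and with the content score as a covariate -0.64 and 0. Over the left-out libraries the estimates were -0.68 to 0.02 for Pcna and -0.71 to -0.0088 for Mcm2.

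**Figure D5:**
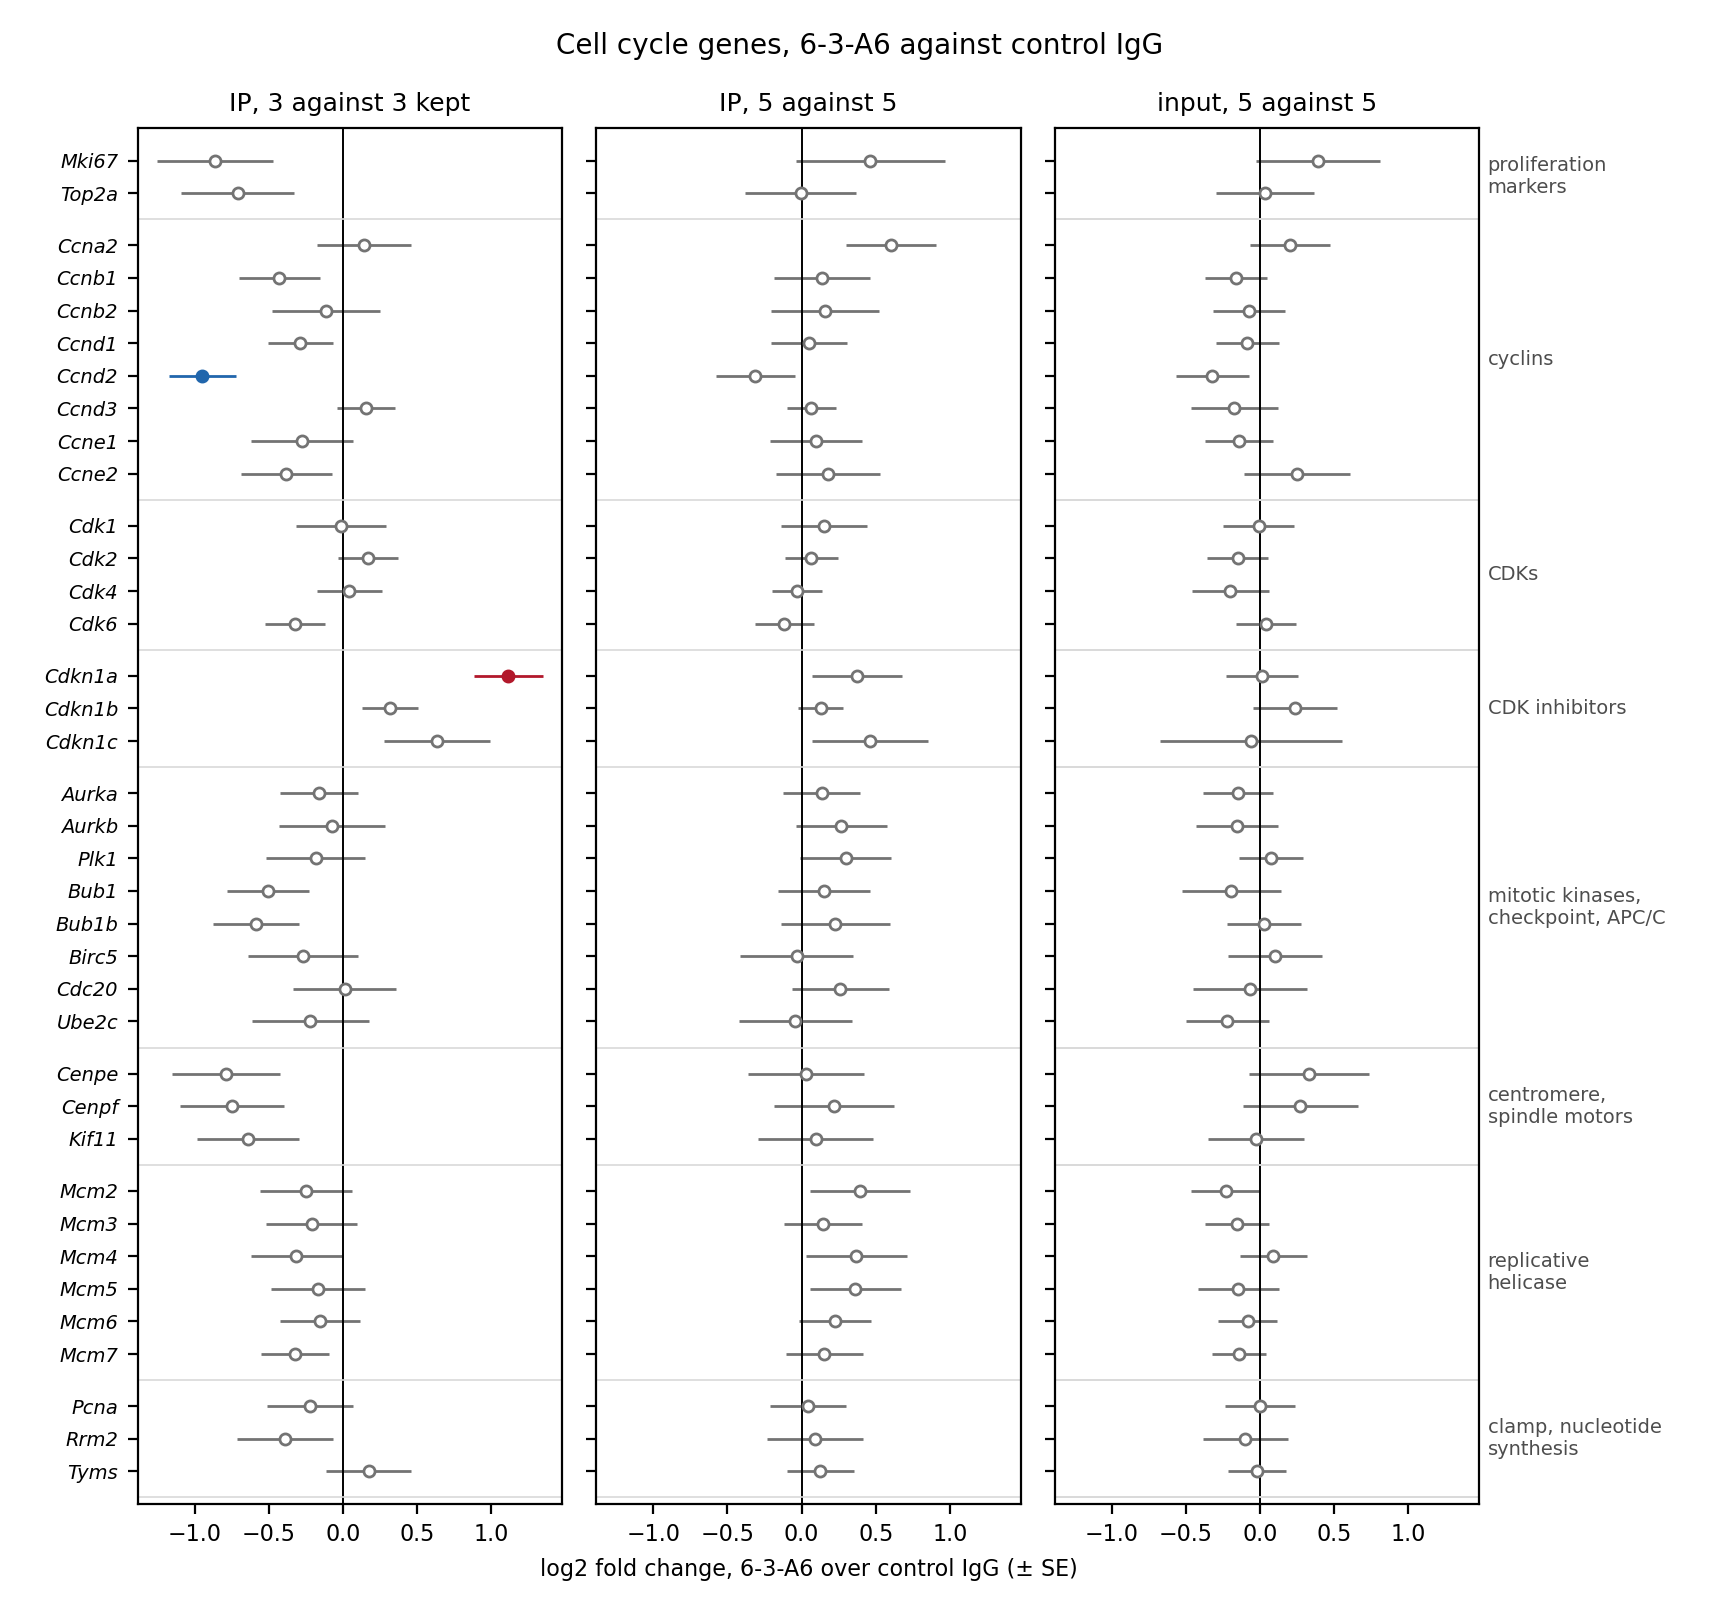
Log2 fold change of 6-3-A6 over control IgG for the 37 genes in the 6 IP libraries compared by the study (left), in all 10 IP libraries (middle) and in the 10 input libraries (right). Points are estimates, bars are ± SE, and filled points are genes called, which are Cdkn1a and Ccnd2 in the left panel and none in the others.

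Over all 10 IP libraries none of the 37 genes was called between treatments, against 0% of all genes. At an unadjusted p below 0.05 there were 0 by edgeR and 0 by DESeq2 (which also called 0), against 2.15% and 1.67% of all genes. Estimates ran from -0.31 for Ccnd2 to 0.60 for Ccna2, and 31 of the 37 were positive, with a median of 0.15 against 0.01 over all genes, where 51.7% were positive. The count fell to 23 and the median to 0.06 without control IgG IP 3, to 23 and 0.04 without 6-3-A6 IP 2 and to 24 and 0.07 without 6-3-A6 IP 4. The median was 0.27, 0.25 and 0.27 without control IgG IP 5, 6-3-A6 IP 1 and 6-3-A6 IP 3. All 95% intervals lay between -0.84 and 1.45. Of the markers tested in these libraries, 0 of 12 macrophage, 0 of 10 fibroblast, 0 of 7 mural and 0 of 7 epithelial estimates were positive. For endothelial, lymphoid and erythroid markers 8 of 16, 6 of 6 and 4 of 4 were positive. None of these markers was called, and their part in the estimates of the 37 genes was not tested.

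In input none of the 37 genes was called between treatments, against 0% of all genes. At an unadjusted p below 0.05 there were 0 by edgeR and 0 by DESeq2 (which also called 0), against 1.32% and 1.52% of all genes. Mki67 was at 79.2, 78.0, 45.8, 156 and 164 CPM in the control IgG inputs 1 to 5 and 81.6, 199, 52.95, 152 and 209 CPM in the 6-3-A6 inputs 1 to 5, so both treatments held low and high tumors. Its estimate of 0.39 was the largest in size of the 37 (-0.43 to 1.20), and it was -0.52 with the kept tumors alone. Cdkn1a was at 0.01 (-0.46 to 0.49) and Ccnd2 at -0.32 (-0.80 to 0.16).

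The treatment effect was tested for a difference between IP and input, and none of the 37 genes was called, against 0% of all genes. At an unadjusted p below 0.05 there were 0 by edgeR and 0 by DESeq2 (which also called 0), against 0.863% and 1.1% of all genes. The largest difference was that of Mcm2, 0.63 with a 95% interval of -0.20 to 1.46, 0.41 without 6-3-A6 tumor 2, whose IP held the highest Mcm2 level, and 0.45 without 6-3-A6 tumor 4, whose input held the lowest. All 6 helicase estimates were positive, 0.28 to 0.63, as were 30 of the 37 genes (median 0.22) and 44.4% of all genes (median -0.04). With the kept tumors alone 5 of 6 helicase estimates were positive. The lowest helicase estimate fell to 0.01 without 6-3-A6 tumor 2 and to 0.09 without control IgG tumor 4. For Cdkn1a the difference was 0.36 (-0.45 to 1.17). This test is also the one between the IP over input changes of the treatments, so calls made in one treatment alone do not show a difference between them.

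Of the 123 further cell cycle genes, Btg2, an antiproliferative gene of the p53 response list, was the 1 gene of 115 tested that was called between treatments in the 6 IP libraries, where 4.61% of all genes were called (0.93 ± 0.18, edgeR adjusted p = 0.0245). Among the other mitosis genes 1 of 37 estimates was positive (median -0.42) and 0 were called, while 45.1% of all genes were positive (median -0.05). With one of the 6 libraries left out, 1 to 10 of the 37 were positive. Single libraries left out moved the median and the number positive to -0.26 and 3 without control IgG IP 5, -0.20 and 10 without 6-3-A6 IP 3 and -0.78 and 1 without 6-3-A6 IP 4. With the content score as a covariate 12 were positive (median -0.26), and endothelial and macrophage markers differed between the treatments in these 6 libraries, as given above. Over all 10 IP libraries 28 of 37 were positive (median 0.11) and 0 of all listed genes were called. Single libraries left out moved the median and the number positive to -0.02 and 17 without control IgG IP 3, 0.26 and 31 without control IgG IP 5, 0.21 and 33 without 6-3-A6 IP 1, -0.04 and 11 without 6-3-A6 IP 2, 0.27 and 35 without 6-3-A6 IP 3, 0.06 and 22 without 6-3-A6 IP 4, 0.07 and 22 without 6-3-A6 IP 5, and with the content score as a covariate 0.24 and 32.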

How the data were processed

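Tumor RNA was sequenced as single 100 bp reads in 20 libraries. The members and gene lists were chosen with earlier results of these data known. The deposited counts are whole-number read counts per gene, taken over whole gene spans, made by the authors with STAR 2.7.4a and featureCounts 2.0.1. The submitters' processing notes also list featureCounts 1.5.2 and GRCh38 without a role. The methods name mm10, while the count table's coordinates are those of GRCm39. Strand setting and handling of overlapping genes are not given in the sources used here, and 19 of the 37 genes overlap another gene, 10 of them over more than 10% of their span. The authors also deposited normalized signal, counts divided by size factors for 6 IP libraries, used here to learn which libraries the study compared. The authors' fold changes and p-values in that table were not used.

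Groups follow the titles. The descriptions exchange HA and input for the 6-3-A6 samples, and endothelial markers were higher in the 6-3-A6 libraries titled HA. No replicate pair of 40 agreed within sampling noise (lowest median chi-square 2.23, where noise gives 0.455).

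Counts were fitted with edgeR 4.0.16 in R 4.3.3 (TMM, filterByExpr, quasi-likelihood F test, Benjamini-Hochberg over all genes tested, threshold 0.05), with treatment as a term where both treatments entered. The code was tested on simulated data. SE is the log2 fold change divided by the root of F, and intervals are 95% (1.96 SE). The floor of 3 counts covers counting error only. Alternatives were DESeq2 1.42.0, other scalings, no filter, a content score (log2 CPM with a prior count of 2), the tumor block and left-out libraries. Input and IP of one number were taken as one tumor homogenate, as the protocol describes. Their deviations from the group means correlated at over 0.1 in 8 of 10 tumors (-0.078 to 0.699). For 7 of 10 tumors the IP of the same number was the best match within the treatment. All 37 genes could be named, with levels for Mki67, Top2a, Cdk1, Ccnb1, Pcna, Mcm2, Ccnd1, Ccnd2, Ccnd3, Cdk4, Cdk6, the 3 inhibitors and the 3 highest and 3 lowest called genes of each comparison. Of other listed genes, the 3 highest and 3 lowest called were named.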

Additional observations from a re-analysis of the deposited data

Results flagged for a closer look

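A library far from the other 4 of its group was found in 10 of 148 tests (37 genes in 4 groups, Dixon's test, critical value 0.71), where chance gives about 1 in 20. In the control IgG IP group, Mki67 was highest in library 5 at 356.8 CPM, Mcm4 was highest in library 5 at 130.3 CPM, Cdk2 was highest in library 1 at 43.89 CPM, and Ccne1 and Aurkb were lowest in library 3 at 5.493 and 12.42 CPM. In the control IgG input group, Cdkn1c was highest in library 1 at 2.34 CPM, and Cdc20 and Rrm2 were lowest in library 3 at 8.191 and 24.06 CPM. In the 6-3-A6 input group, Cdk4 was lowest in library 4 at 114.6 CPM and Ube2c was highest in library 5 at 159.7 CPM. No gene of the 37 was flagged in the 6-3-A6 IP group.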

How the results depend on the processing

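For IP against input over all tumors, where 12 of the 37 genes were called, the replicate block by tumor gave 22, the block without the tumor of 6-3-A6 input 4 (chosen after seeing the data) 25, the tumors kept by the study 7, and leaving out a tumor 9 to 13. DESeq2 gave 13 there and library totals gave 16. In control IgG tumors the count of 2 became 5 with DESeq2, 16 with the block, 1 with the kept tumors (Cdkn1c, neither of the 2), and 1 (without tumor 2) to 4 (without tumor 4) with a tumor left out. In 6-3-A6 tumors the count of 6 became 12 with the block, 18 with the block without that tumor, 2 with the kept tumors, 1 without tumor 1, 2 without tumor 3 and 3 without tumor 2, 4 or 5. For 6-3-A6 against control IgG in the 6 kept IP libraries, the count of 2 became 1 with library totals, 5 with no filter (1 higher and 4 lower), 0 with the endothelial content score as covariate and 0 to 1 with a library left out. No paired analysis was possible there because the groups share 1 number. Between treatments in all IP or all input libraries the samples share only a number (1 of 5 pairs over 0.1 in each), and the replicate block gave 0 calls. Over all genes, the calls went from 5597 to 3347 with the kept tumors, in control IgG tumors from 2163 to 4640 with the block, 600 with the kept tumors and 809 to 2274 with a tumor left out, and in 6-3-A6 tumors from 2507 to 5631 with the block without tumor 4 and 1077 to 2449 with a tumor left out. In the kept IP libraries they went from 646 to 1459 with no filter, 1190 with DESeq2, 0 with the covariate and 9 to 653 with a library left out. Library totals moved the median of all genes from -0.05 to 0.13 over all tumors, and the higher share of calls from 48.2% to 70.4%, in control IgG tumors from 63.7% to 82.0% and in 6-3-A6 tumors from 54.0% to 76.9%. No filter gave 75.6% and 65.1% in the single treatments, and the kept tumors 97.3% in control IgG. Of the estimates for single genes, 1350 kept their direction and side of the threshold, 61 kept the direction and lost the call, 33 kept it and gained the call, and 152 for 45 of these results changed sign, none of them (0) called with either setting. For IP against input over all tumors, estimates turned for Ccnd1 (0.14 with library totals, 0.035 with no filter), Ccnd2 (0.076 with library totals), Ccnd3 (0.0076 with DESeq2, 0.0075 with DESeq2 size factors, 0.13 with library totals, 0.041 with no filter, 0.015 with the replicate block, 0.16 with the kept tumors), Cdk6 (-0.035 with the kept tumors) and Cdkn1b (0.019 with DESeq2, 0.019 with DESeq2 size factors, 0.19 with library totals, 0.064 with no filter, 0.038 with the replicate block, 0.14 with the block without 6-3-A6 tumor 4). Leaving out single replicates there gave ranges across 0, Ccnd1 -0.079 to 0.027, Ccnd3 -0.13 to 0.037, Cdk6 -0.024 to 0.10 and Cdkn1b -0.083 to 0.088. For IP against input in control IgG tumors, estimates turned for Ccnd1 (0.038 with library totals), Ccnd2 (0.031 with library totals) and Cdk1 (-0.017 with the kept tumors). Leaving out single replicates there gave ranges across 0, Cdk1 -0.023 to 0.11 and Cdkn1b -0.088 to 0.12. For IP against input in 6-3-A6 tumors, estimates turned for Ccnd1 (-0.017 with the block without 6-3-A6 tumor 4, -0.070 with the kept tumors), Ccnd2 (0.12 with library totals), Ccnd3 (-0.14 with the block without 6-3-A6 tumor 4), Cdk4 (0.00015 with library totals, 0.018 with the kept tumors), Cdk6 (0.0033 with DESeq2, 0.0034 with DESeq2 size factors, 0.15 with library totals, 0.029 with no filter, 0.067 with the block without 6-3-A6 tumor 4) and Cdkn1b (0.19 with library totals, 0.037 with no filter, 0.018 with the replicate block, 0.16 with the block without 6-3-A6 tumor 4). Leaving out single replicates there gave ranges across 0, Ccnd1 -0.021 to 0.11, Ccnd3 -0.16 to 0.31, Cdk6 -0.11 to 0.044 and Cdkn1b -0.14 to 0.10. For 6-3-A6 against control IgG in the kept IP libraries, estimates turned for Ccnb1 (0.72 with the content score), Cdk1 (0.015 with DESeq2, 0.015 with DESeq2 size factors, 0.063 with library totals, 0.012 with no filter, 0.24 with the content score) and Cdkn1c (-1.18 with the content score). Leaving out single replicates there gave ranges across 0, Cdk1 -0.52 to 0.22, Cdk4 -0.10 to 0.18 and Pcna -0.68 to 0.017. For 6-3-A6 against control IgG in all IP libraries, estimates turned for Top2a (0.020 with DESeq2, 0.020 with DESeq2 size factors, 0.0048 with library totals, 0.013 with no filter, 0.12 with the content score), Cdk4 (0.010 with library totals) and Pcna (-0.0038 with the replicate block). Over the left-out replicates for 6-3-A6 against control IgG in all IP libraries, the ranges across 0 were Top2a -0.27 to 0.36, Ccnb1 -0.089 to 0.36, Ccnd1 -0.13 to 0.16, Ccnd3 -0.017 to 0.16, Cdk1 -0.020 to 0.31, Cdk4 -0.11 to 0.038 and Pcna -0.070 to 0.20. For 6-3-A6 against control IgG in input, estimates turned for Mki67 (-0.52 with the kept tumors), Top2a (-0.068 with library totals, -0.024 with no filter, -0.45 with the kept tumors), Cdk1 (0.0059 with the replicate block), Cdk6 (-0.0017 with library totals, -0.12 with the kept tumors), Cdkn1a (-0.022 with library totals, -0.0080 with no filter, -0.071 with the replicate block, -0.063 with the kept tumors) and Cdkn1c (0.20 with the replicate block, 1.23 with the kept tumors). Over the left-out replicates for 6-3-A6 against control IgG in input, the ranges across 0 were Top2a -0.14 to 0.26, Ccnd1 -0.21 to 0.019, Ccnd3 -0.40 to 0.029, Cdk1 -0.16 to 0.10, Cdk6 -0.086 to 0.13, Cdkn1a -0.19 to 0.13, Cdkn1c -0.49 to 0.20 and Pcna -0.18 to 0.12. For the difference of the treatment effect between fractions, estimates turned for Mki67 (-0.34 with the kept tumors), Top2a (0.073 with library totals, 0.0063 with no filter), Ccnb1 (-0.10 with the kept tumors), Ccnd1 (-0.015 with the kept tumors), Ccnd2 (-0.050 with the replicate block, -0.16 with the kept tumors), Cdkn1b (0.0025 with library totals), Cdkn1c (-0.58 with the kept tumors) and Pcna (-0.0015 with the kept tumors). Over the left-out replicates for the difference of the treatment effect between fractions, the ranges across 0 were Mki67 -0.17 to 0.35, Top2a -0.32 to 0.19, Ccnd2 -0.069 to 0.093, Cdk4 -0.086 to 0.29, Cdkn1b -0.21 to 0.071, Cdkn1c -0.21 to 1.00 and Pcna -0.055 to 0.13. The cause of these changes was not tested. Depth limits Cdkn1c most among the genes named for their levels.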
